A study of Mus musculus with 10 samples.

Results

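Peaks of aryl hydrocarbon receptor (AHR) ChIP-seq were examined at 10 genes of the Notch pathway and of secretory fate in colon organoids: the receptors Notch1 and Notch2, the ligands Dll1, Dll4, Jag1 and Jag2, the DNA-binding effector Rbpj, the target genes Hes1 and Hey1, and the secretory master regulator Atoh1. The 10 genes were taken by name, out of 21938 protein-coding genes on the mouse autosomes and sex chromosomes and not by a threshold on a measured value. A peak was assigned to a gene where it overlapped the gene body or 10 kb on either side (GENCODE M21 annotation, GRCm38/mm10 build), which gave 38 of the 123652 peaks in WT organoids and 2 of the 1931 peaks in AHR KO organoids. AHR is a transcription factor that enters the nucleus on binding a ligand, and FICZ is a tryptophan-derived ligand of high affinity. The WT group held 4 ChIP libraries with 4 inputs and the AHR KO group 1 ChIP library with 1 input. All 10 libraries came from mouse colon organoids, which are cultures of epithelial cells alone, kept under WENR medium that favours stem cells and given 5 nM FICZ for 1 h, and both ChIP groups used the same anti-AhR antibody (BML-SA210). The labels give the knockout as AHR KO, without its allele or the number of cultures behind it. The study's methods describe 4 biological replicates of organoids without a number per genotype, while AHR KO has 1 ChIP library here. The mice of the study lose AHR through Villin-Cre, active in the intestinal epithelium, in Ahr fl/fl animals. The WT cultures were available as a single peak list and AHR KO as a list from 1 library, so no value had a replicate check, no genotype difference could be tested, and each count below describes these lists.

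Notch is a receptor that is cleaved when it meets a Delta or Jagged ligand on a neighbouring cell. Its freed intracellular part joins RBPJ on DNA and activates genes such as Hes1, whose product is a repressor of Atoh1. In the intestinal epithelium cells with active Notch remain progenitors or become absorptive, and cells that escape it express Atoh1 and become secretory, such as goblet and enteroendocrine cells.

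The sequence under the member peaks fell into a few kinds, shown here with 1 example or more of each, read from the mm10 genome along the strand of the gene. Capitals mark GCGTG, the core that AHR contacts with its partner ARNT, and TGGGAA, the core that RBPJ contacts, each read on both strands (CACGC and TTCCCA on the other strand). The peak at Hes1 is shown because it had the highest score of all members. Its first 300 bases (chr16:30063996-30064295, plus strand) were rich in C and G, with 4 cores for AHR and 1 for RBPJ:
Hes1: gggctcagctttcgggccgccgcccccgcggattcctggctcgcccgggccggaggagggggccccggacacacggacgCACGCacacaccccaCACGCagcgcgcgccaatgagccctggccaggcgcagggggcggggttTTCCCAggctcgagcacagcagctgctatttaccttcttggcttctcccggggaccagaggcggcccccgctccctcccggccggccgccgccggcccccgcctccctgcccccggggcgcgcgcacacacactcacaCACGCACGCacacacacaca
The highest peak of Notch2 (chr3:98068730-98068929, plus strand, the 200 bases at its midpoint) was a run of TG with interspersed cores, and it was also a peak in AHR KO organoids:
Notch2: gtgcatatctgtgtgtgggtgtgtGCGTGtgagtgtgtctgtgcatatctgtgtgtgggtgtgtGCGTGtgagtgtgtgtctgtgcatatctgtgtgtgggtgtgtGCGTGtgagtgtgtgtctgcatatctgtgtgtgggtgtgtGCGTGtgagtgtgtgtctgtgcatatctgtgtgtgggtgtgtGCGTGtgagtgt
The highest peak of Dll4 (chr2:119329858-119330057, plus strand, the 200 bases at its midpoint) was a run of CA without a core, the most frequent kind among the member peaks:
Dll4: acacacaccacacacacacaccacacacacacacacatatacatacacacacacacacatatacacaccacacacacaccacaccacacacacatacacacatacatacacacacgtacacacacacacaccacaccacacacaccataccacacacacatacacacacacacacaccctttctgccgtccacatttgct
Repeats of other kinds were seen at Dll1 (chr17:15386306-15386505, minus strand), Rbpj (chr5:53557225-53557404, plus strand) and Atoh1 (chr6:64725432-64725623, plus strand):
Dll1: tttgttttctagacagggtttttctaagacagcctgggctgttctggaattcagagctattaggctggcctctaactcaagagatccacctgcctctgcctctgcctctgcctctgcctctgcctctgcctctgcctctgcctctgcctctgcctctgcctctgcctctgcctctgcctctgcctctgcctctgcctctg
Rbpj: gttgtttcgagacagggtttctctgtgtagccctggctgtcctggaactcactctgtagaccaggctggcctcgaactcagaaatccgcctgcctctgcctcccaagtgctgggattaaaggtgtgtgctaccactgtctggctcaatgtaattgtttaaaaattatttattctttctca
Atoh1: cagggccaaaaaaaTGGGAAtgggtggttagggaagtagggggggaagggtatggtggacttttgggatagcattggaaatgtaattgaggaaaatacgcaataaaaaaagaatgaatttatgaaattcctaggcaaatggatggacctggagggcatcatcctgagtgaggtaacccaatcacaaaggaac

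Of the 10 genes, 9 had at least 1 WT peak and Hey1 had none. Over all protein-coding genes 78.3% had a peak by the same rule, so a peak within 10 kb was the usual state of a gene in this list. The 10 windows together spanned 673.1 kb and held 5.65 peaks per 100 kb, beside 4.53 per 100 kb over the chromosomes, which would give 30.5 peaks in windows of this length. This list density takes the whole length of the chromosomes, assembly gaps included. The density over the windows of all protein-coding genes was not counted. By the place of the midpoint, 22 of the 38 peaks lay in introns, 11 upstream and 5 downstream of a gene. The score of a peak is the fold enrichment of ChIP fragments over the local background, each with 1 added. Member peaks had a median score of 5.27, with quartiles of 4.53 and 5.98 and a range from 3.04 to 13.48. All WT peaks had a median of 5.32 and quartiles of 4.53 and 5.98. In the top 10% of scores were 7 of 38 member peaks (18.4%, Wilson 95% interval 9.22 to 33.42%), an interval that holds the 10.0% of the whole list. Their widths ran from 181 to 939 bp with a median of 244 bp, beside a median of 228 bp for all WT peaks.

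The depth behind these scores was read from their steps. Scores of 51.7% of WT peaks fell, within 0.0002, on a grid with a step of 0.332, the change that 1 fragment makes over a background of 2.01 fragments. Scores spread evenly would place 0.12% of peaks there. Of the 38 member peaks, 18 (47.4%) lay on this grid, with 12 to 28 fragments at their summit (median 16). In the AHR KO list 17.8% of peaks, beside 0.051% for an even spread, lay on a grid with a step of 0.777, from a background of 0.287 fragments. The background of the peaks off these grids was not read. Scores of peaks were therefore not compared between the lists, and a missing AHR KO peak says only that none was called at that depth. The number of reads per library was not analysed here. Peak lists hold no level of expression, so the identity of the cells could not be checked from them.

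**Figure D1:**
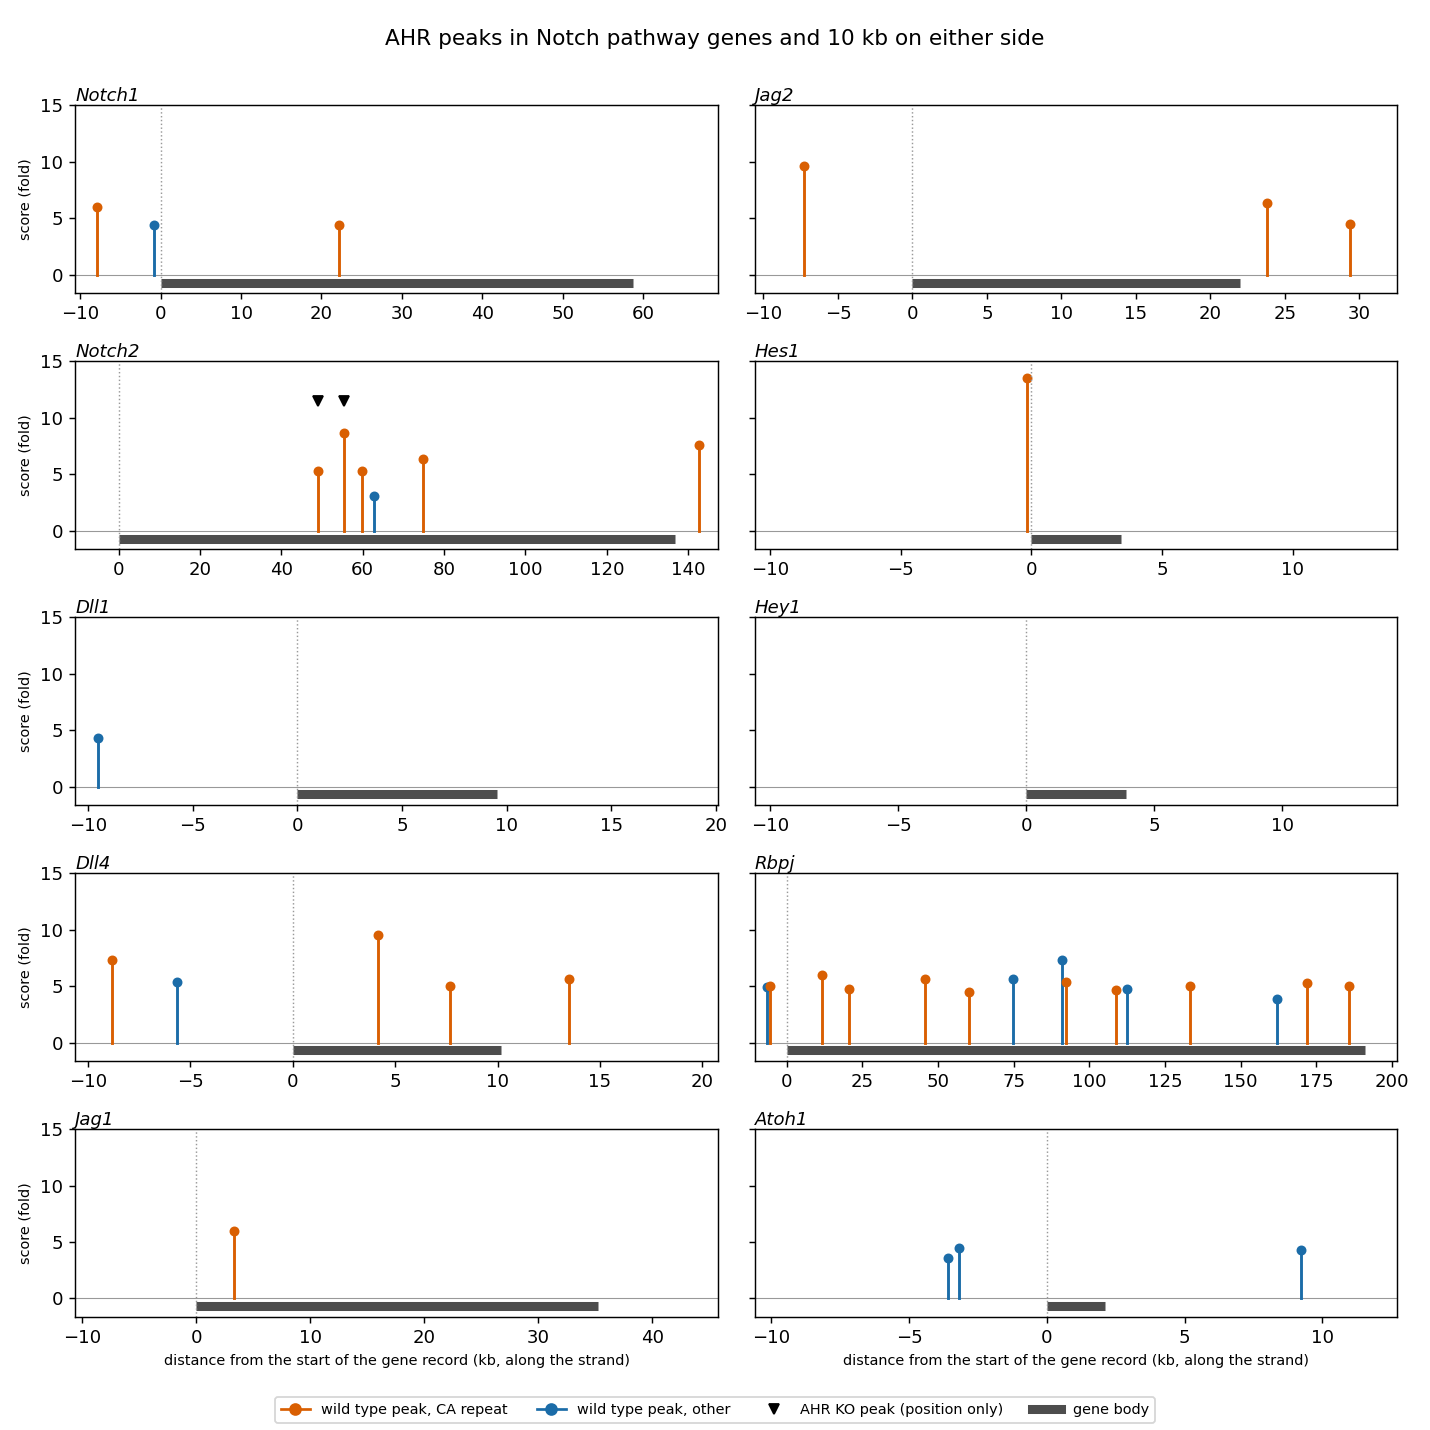
AHR peaks at the 10 genes, by distance of the peak midpoint from the start of the gene record (x axis, kb, along the strand of the gene) and WT score (y axis, fold enrichment); each stem is 1 WT peak, orange where its 200 bp window holds at least 3 copies of CACACA or TGTGTG, triangles give the position of AHR KO peaks and grey bars the gene body. The 2 AHR KO peaks sit over 2 of the 6 WT peaks of Notch2, Hey1 is empty, and the single peak of Hes1 at the gene start reaches 13.48.

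Notch1, a receptor expressed in intestinal progenitors, lies at chr2:26457903-26516663 on the minus strand and had 3 WT peaks, beside 3.56 that the density of the list would give for its window. The peak nearest to the start had a score of 4.37, and its midpoint lay 855 bp upstream of the gene start, which is also the start of a coding transcript. Its window was 57.5% soft-masked, that is, written in lower case in the genome file because it is repetitive or of low complexity, and held 1 GCGTG, 1 GGAATG (the core read by TEAD factors) and no CA repeat. The highest of the 3 (chr2:26524435-26524643) scored 5.98 at 7876 bp upstream, over a GT run of 51 bp with no core. Repeat units of single peaks are named on the plus strand of the genome. The third (chr2:26494408-26494588) lay in an intron, 22165 bp into the gene, with a score of 4.40. That window was 36.5% soft-masked, with a run of AC of 48 bp, and held 1 GCGTG and 2 copies of TGGGAA. None of these peaks was in the top 10% of WT scores, which began at 7.14. No AHR KO peak lay in the Notch1 window, and the nearest was 12.4 kb upstream of the start with a score of 7.77.

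Notch2, the second receptor, spans chr3:98013527-98150361 on the plus strand and had 6 WT peaks, beside 7.10 at list density. It was the only member with AHR KO peaks, where 4.47% of all protein-coding genes had 1 or more. The highest WT peak (chr3:98068584-98069074) scored 8.68, a value that 2.84% of WT peaks reached, and lay in an intron 55302 bp from the start. It held 10 copies of GCGTG over its 491 bp, and all 10 were preceded by TGT and followed by TG, that is, set in the TG run printed above. An AHR KO peak (chr3:98068815-98069074, score 7.57) covered its 3′ part with 6 of the same copies. The WT peak nearest to the start within the window (chr3:98062505-98062696, score 5.27, 49073 bp into the gene) overlapped the second AHR KO peak (chr3:98062512-98062758, score 7.69), and its window was 88.5% soft-masked, a TG run with no core. Scores of 7.57 and 7.69 were reached by 29.0% and 27.3% of AHR KO peaks.

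The other Notch2 peaks had no counterpart in AHR KO. A peak 59739 bp into the gene (chr3:98073150-98073383) scored 5.32, and its window was 42.0% soft-masked with a TG run of 49 bp. The lowest peak of all members (chr3:98076097-98076428) scored 3.04 at 62735 bp, in a wholly soft-masked window with no CA repeat. A further intronic peak (chr3:98088312-98088542) scored 6.31 at 74900 bp, and the last (chr3:98155959-98156235) scored 7.56 at 5736 bp past the 3′ end, over a GT run. None of these 4 held GCGTG. The WT peak nearest to the Notch2 start in the genome lay 25726 bp upstream, outside the window, with a score of 5.92.

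Among the ligands, Dll1 and Dll4 are the Delta-type ligands carried by secretory cells. Dll1 (chr17:15367354-15376872, minus strand) had 1 WT peak, beside 1.34 at list density. That peak (chr17:15386279-15386532) scored 4.32 at 9533 bp upstream of the start. It was a tandem repeat of the unit gaggca on the plus strand over 127 bp, fully soft-masked, with no core of any factor searched. Of the genes with a WT peak, 94.3% had a best score at or above it.

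Dll4 (chr2:119325784-119335962, plus strand) had 5 WT peaks in a window of 30.2 kb, beside 1.37 at list density. That was 16.6 peaks per 100 kb, the densest of the 10 windows. The highest (chr2:119329762-119330153) scored 9.54, reached by 1.63% of WT peaks, and lay in an intron 4173 bp from the start. It was the CA run printed above and held no GCGTG in any part of its 392 bp. Upstream, a peak at 8825 bp (chr2:119316861-119317058) scored 7.31 over a TG run with 1 GCGTG, and 1 at 5641 bp (chr2:119320037-119320250) scored 5.32 over a TC run. A second intronic peak (chr2:119333323-119333577) scored 4.98 at 7666 bp over a CA run, and the fifth (chr2:119339183-119339368) scored 5.65 at 3313 bp past the end over a run of AG with some CA. All 5 windows were at least 70% soft-masked.

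Jag1 (chr2:137081456-137116644, minus strand), a Jagged-type ligand, had 1 WT peak beside 2.50 at list density. It lay in an intron 3322 bp from the start (chr2:137113166-137113479), scored 5.97, and was an AC run of 80 bp with no core. Jag2 (chr12:112907819-112929776, minus strand), its paralogue, had 3 WT peaks beside 1.90 at list density. The highest (chr12:112936581-112937519) was the widest of all member peaks at 939 bp, scored 9.64 with 28 fragments at the summit, and lay 7274 bp upstream of the start within the neighbouring gene Nudt14. It held 53 copies of CACACA or TGTGTG and no core. The other Jag2 peaks lay past the 3′ end, at 1833 bp with a score of 6.31 (chr12:112905849-112906123) and at 7405 bp with a score of 4.45 (chr12:112900321-112900507), both over AC runs with no core. The second of these was 35.0% soft-masked. No AHR KO peak lay within the window of any ligand, and the nearest was 70.6 kb from the Dll4 start.

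Rbpj (chr5:53466152-53657362, plus strand), which encodes the factor that carries the Notch signal to DNA, had 15 WT peaks in a window of 211.0 kb, beside 9.56 at list density. Their scores ran from 3.87 to 7.31 with a median of 4.98, below the median of the whole list. The highest (chr5:53557146-53557404) scored 7.31 and lay 91123 bp into the gene, 1441 bp past the start of a shorter coding transcript. Its window was 77.0% soft-masked, with no CA repeat and no core. The peak was counted as intronic by its midpoint, and its 5′ end overlapped an exon of a retained-intron transcript, so the sequence printed above is the part outside that exon. The peak nearest to the gene start (chr5:53460454-53460716) scored 4.98 at 5567 bp upstream, over a GT run with 1 GCGTG and 1 TGGGAA. A peak with a score of 5.27 (chr5:53638046-53638234) lay 492 bp upstream of the start of a non-coding transcript, 171988 bp into the gene, and was a TG run with no core. No peak lay within 1 kb of a start of a coding Rbpj transcript.

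Of the Rbpj windows, 4 were under 50% soft-masked, and all 4 were CA or TG runs in introns. The 1 at 20695 bp (chr5:53486754-53486941) scored 4.72 and held 1 GCGTG set in the TG run in the same way and 1 TGGGAA. The 1 at 45570 bp (chr5:53511618-53511827) scored 5.65 and held 2 copies of TGGGAA and no GCGTG. The other two, at 60124 bp (chr5:53526180-53526373) and 133201 bp (chr5:53599263-53599443), scored 4.49 and 4.98 and held none of the cores. These windows ranged from 35.0% to 48.0% soft-masked.

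The remaining 8 Rbpj peaks lay over windows at least 60.0% soft-masked. Upstream, a peak at 6482 bp (chr5:53459454-53459886) scored 4.93. In the introns, peaks at 11527 bp, 74725 bp, 92438 bp and 108800 bp scored 5.98, 5.65, 5.32 and 4.65. Further on, peaks at 112299 bp, 162023 bp and 185726 bp scored 4.76, 3.87 and 4.98. Of these 8, the peak at 74725 bp (chr5:53540743-53541012) held 2 copies of GCGTG, and 4 were CA repeats. Over the gene, 10 of 15 peaks were CA repeats, and none overlapped an AHR KO peak, the nearest of which was 474 kb upstream of the start.

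Hes1 (chr16:30064384-30067796, plus strand), which encodes the repressor that holds back Atoh1, had 1 WT peak beside 1.06 at list density, and it was the highest peak of all members. It covered chr16:30063996-30064437, from 388 bp upstream to 53 bp past the start of the gene record, with its midpoint 168 bp upstream. Its score of 13.48 ranked 220 in the WT list, and 222 of 123366 WT peaks on the chromosomes (0.18%) scored as high. Among the 2158 WT peaks at a promoter, defined by a midpoint from 1 kb upstream to 100 bp downstream of any transcript start, 26 (1.2%) reached it. Of the protein-coding genes with a WT peak, 1.15% had a best peak as high. The start of the gene record is that of a non-coding transcript, and the coding transcript begins 956 bp further on, so the midpoint lay 1124 bp and the 3′ end of the peak 903 bp upstream of the coding start.

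The Hes1 peak differed from the other members in base composition. Its window was 74.0% GC with 20 CpG sites, where the median over member windows was 47.75% GC and 0.128% of all WT windows reached 70% GC. In all 442 bp there were 52 CpG sites, and the GC content was 73.5%. The soft-masked part was 52 of 442 bases, from 132 to 81 bp upstream of the start, a short CA run that made up 26.0% of the window, the smallest masked share of any member. Of the 4 GCGTG copies, 2 (middle base 106 and 102 bp upstream) lay in this run and 2 (307 and 292 bp upstream) in unmasked sequence. A single TGGGAA stood 246 to 241 bp upstream. None of the 4 copies extended to TNGCGTG, the longer AHR response element, and no AP-1 word (TGACTCA or TGAGTCA) was found in the window. The AHR KO list had no peak in the Hes1 window, and its nearest was 299 kb upstream of the start.

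Many of the highest peaks of the list were of another kind. Of the 222 WT peaks that scored at least as high as that of Hes1, 177 (79.7%) were CA repeats, 77 (34.7%) were under 50% soft-masked and 4 (1.8%), that of Hes1 among them, had a window of at least 70% GC. By the rule used for all peaks the Hes1 peak was itself counted as a CA repeat, with 4 copies of CACACA in its window. Of all 2158 promoter peaks, 255 (11.8%) held 2 or more copies of GCGTG and 39 (1.81%) had 20 or more CpG sites.

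**Figure D2:**
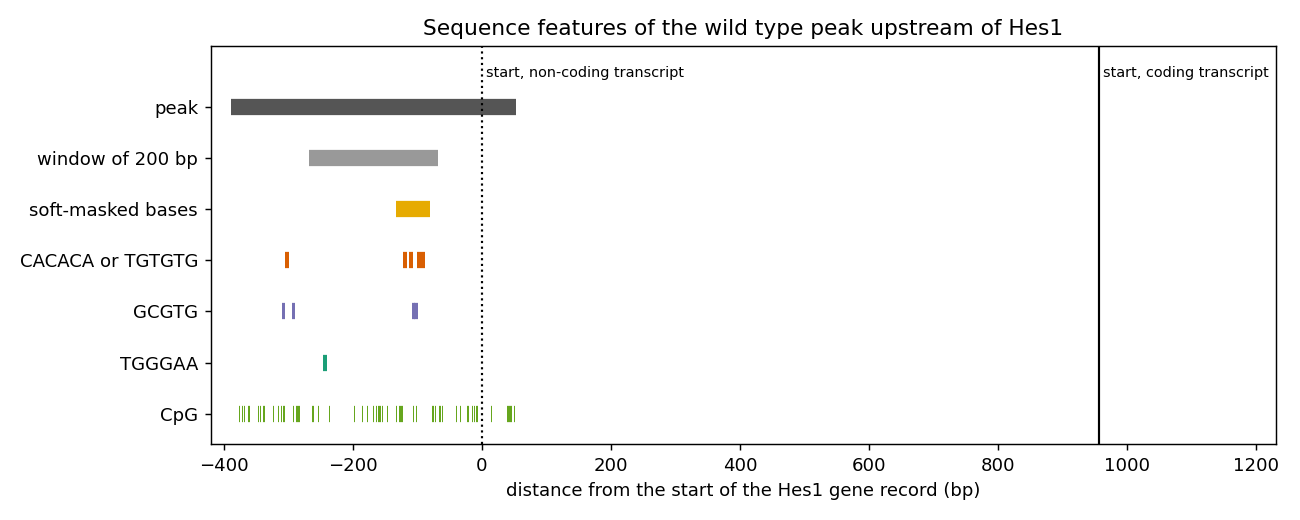
Features of the WT peak at Hes1 by distance from the start of the gene record (x axis, bp); each row is 1 kind of feature, vertical lines are the starts of the non-coding (dotted) and the coding (solid) transcript. The peak lies over the non-coding start and ends before the coding start, and 2 of the 4 GCGTG copies fall in the soft-masked CA run and 2 outside it.

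Hey1 (chr3:8663359-8667256, minus strand), a further Notch target of the same family, had no WT peak within 10 kb, beside 1.08 at list density. The nearest (chr3:8682714-8682901) lay 15551 bp upstream of the start, scored 5.26 and was fully soft-masked with no CA repeat.

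Atoh1 (chr6:64729125-64731245, plus strand), the factor required for all secretory lineages, had 3 WT peaks beside 1.00 at list density. All were weak. The peak at 3598 bp upstream (chr6:64725432-64725623, printed above) scored 3.62 and held 1 TGGGAA and 1 GGAATG, which overlapped. The peak at 3190 bp upstream (chr6:64725841-64726030) scored 4.49, and the third (chr6:64738160-64738549) scored 4.28 at 7109 bp past the 3′ end. The 3 windows were fully soft-masked, without a CA repeat and without GCGTG, and 91.7% of the genes with a WT peak had a best score at or above 4.49. The nearest AHR KO peak lay 985 kb from the Atoh1 start.

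The order of the best scores was Hes1 (13.48), Jag2 (9.64), Dll4 (9.54), Notch2 (8.68), Rbpj (7.31), Notch1 (5.98), Jag1 (5.97), Atoh1 (4.49) and Dll1 (4.32). The neighbours Jag2 and Dll4, Notch1 and Jag1, and Atoh1 and Dll1 differed by less than 0.332, the step of the WT score grid. No order between them was read. That step is not the error of a score, and the best peaks of Hes1, Dll4, Notch2, Jag1 and Atoh1 lay off the grid. No score had a replicate, so the order of genes with larger differences was not tested either. For the 9 genes the median best score was 7.31, beside 6.31 for all protein-coding genes with a peak. A peak in the top 10% of scores stood at 5 of the 10 genes, where 23% of all protein-coding genes had one. These were Hes1, Jag2, Dll4, Notch2 and Rbpj. Of their windows, those of Jag2, Notch2 and Rbpj were longer than the 37.4 kb median over protein-coding genes, as were those of Notch1 and Jag1, and whether window length had a part in this share was not tested.

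**Figure D3:**
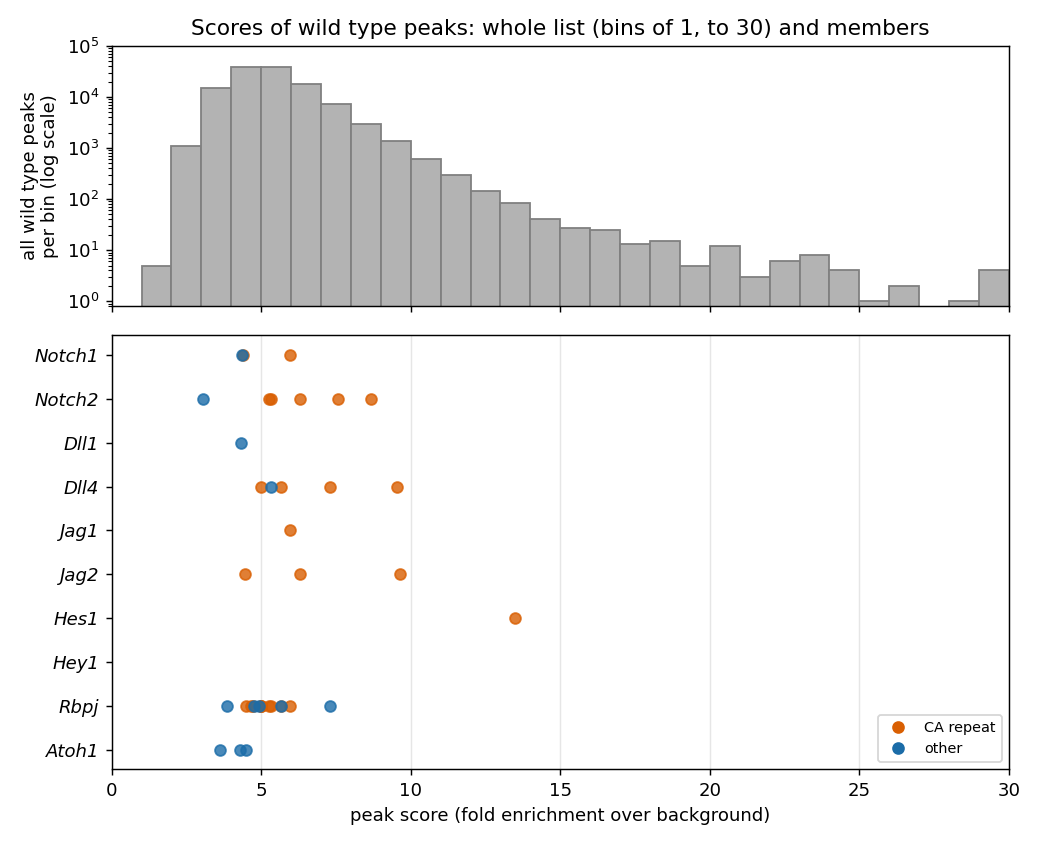
Scores of WT peaks (x axis, fold enrichment): above, the number of all WT peaks per score bin of 1 up to 30 (log scale), and below, each member peak as a point in the row of its gene, orange for CA repeats. Most member peaks lie between 4 and 6 like the bulk of the list, and the peak of Hes1 at 13.48 lies apart from those of the other genes.

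A peak at a promoter was present at 3 of the 10 genes (Notch1, Hes1 and Rbpj), where 9.27% of all protein-coding genes had one, and these were 3 of 38 member peaks (7.89%) beside 1.75% of all WT peaks. With starts of coding transcripts alone, that of Notch1 was left by the midpoint rule, 1 of 10 genes beside 6.56% of all protein-coding genes. Where any overlap of the peak was enough, those of Notch1 and Hes1 were left. The share of all protein-coding genes by this looser rule was not counted. Over motifs, 0 of 38 member windows held TNGCGTG, which allows a share of up to 7.89%, beside 2.84% of all WT windows. None of the 10 genes had a peak with this word, where 6.74% of all protein-coding genes had one. Whole peaks also gave 0 of 38. The sequence of the 10 gene windows held 77 copies of TNGCGTG, and none lay inside a WT peak, beside 4871 of 181198 copies (2.69%) over the chromosomes. The copy nearest to a start was 18 bp past it at Atoh1, 106 bp past it at Notch2, 125 bp before it at Dll1 and 422 bp past it at Hes1. In RefSeq promoter windows (250 bp before to 50 bp from the start on, mm10), matched for 8 of the 10 genes, Atoh1 held 2 copies and 1 of the Dll1 windows held 1 copy, where 5.07% of 32851 promoter windows held the word. The copies in the Atoh1 and Dll1 promoters and the one near the Notch2 start were thus not under a peak.

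The shorter core GCGTG was found in 8 of 38 member windows (21.1%, Wilson 95% interval 11.07 to 36.35%), beside 17.7% of all WT windows. Of 21 copies in whole member peaks, 10 were in the repeat of Notch2, 4 at Hes1, and 17 in soft-masked sequence. TGGGAA was found in 6 of 38 windows (15.8%, 7.44 to 30.42%) beside 8.13% of all, and GGAATG in 3 (7.89%, 2.72 to 20.8%) beside 7.24%. An AP-1 word was found in none, which allows a share of up to 7.89%, beside 1.28%. Over whole peaks an AP-1 word was found in 1 of 38 (2.63%, 0.47 to 13.49%) beside 1.77%. Windows that shared a gene were counted singly. The intervals cover counting error over peaks and not the spread between cultures.

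Repeats were the feature that the member peaks had most in common. Soft-masked bases made up at least 50% of 30 of 38 windows (78.9%, 63.65 to 88.93%) beside 86.0% of all WT peaks, and 26 (68.4%, 52.54 to 80.92%) were CA repeats beside 57.3%. All 38 were at least 50% soft-masked or a CA repeat, as were 98.8% of all WT peaks, so this was no mark of these genes. The 12 peaks without a CA repeat lay at Notch1, Notch2, Dll1, Dll4, Rbpj and Atoh1. By overlap, 2 of 38 WT peaks (5.26%, 1.46 to 17.29%) met an AHR KO peak, beside 1.46% of all WT peaks, and both were TG runs of Notch2.

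**Figure D4:**
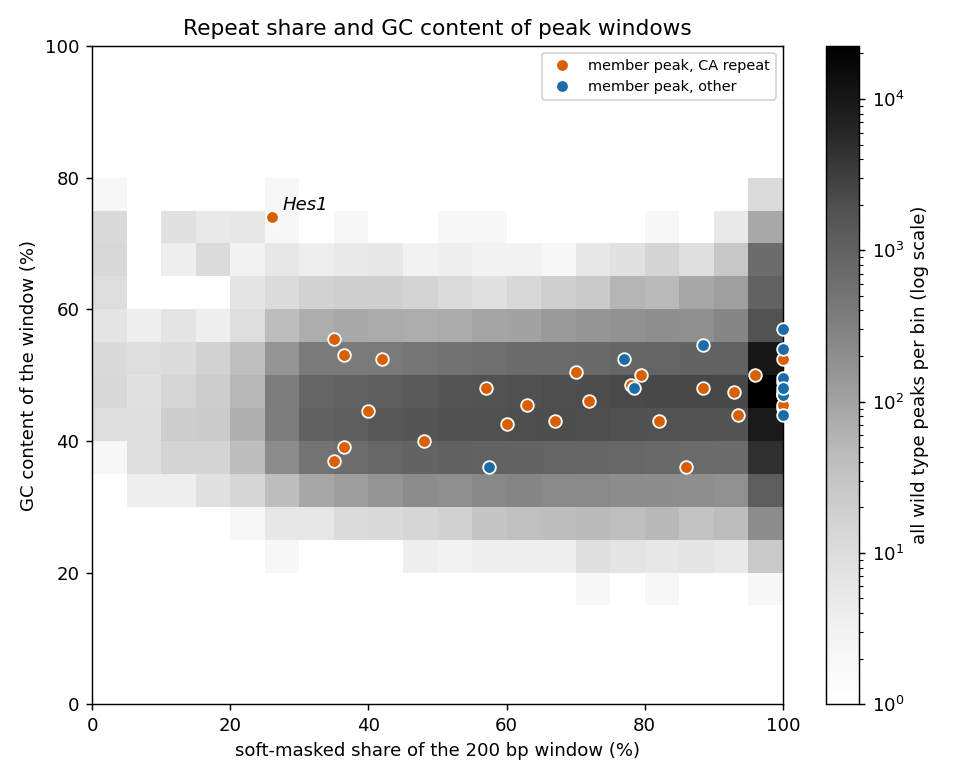
Soft-masked share (x axis, %) against GC content (y axis, %) of the 200 bp windows at peak midpoints; grey squares count all WT peaks per bin (log scale), points are the 38 member peaks, orange for CA repeats. Most member peaks sit with the bulk of the list, and that of Hes1, at 26.0% masked and 74.0% GC, stands apart.

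Another 70 genes of the pathway were counted by the same rule, in 6 groups listed by role. A WT peak was found at 59 of 70 (84.3%), a peak in the top 10% at 20 (28.6%), a promoter peak at 7 (10.0%), an AHR KO peak at 4 (5.71%) and a peak with TNGCGTG at 9 (12.9%), beside 78.3%, 23%, 9.27%, 4.47% and 6.74% of all protein-coding genes. Together they held 225 separate WT peaks, none shared with a member. Peak counts and best scores of these 70 genes were not scaled to window length. Whether window length had a part in them was not tested.

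Of the receptors and atypical ligands, 5 of 6 had a WT peak. Notch3, a receptor best known from vascular smooth muscle, had 8, of which 2 at a promoter, and the highest lay 723 bp upstream of its start with a score of 6.65 and 3 copies of GCGTG in a CA repeat. Dner, an atypical ligand, reached 9.97 with 24 peaks and 1 AHR KO peak, and Notch4 reached 7.31. Dlk1 had none.

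Receptor modification and processing genes had a WT peak at 14 of 15. Lfng, a glycosyltransferase that tunes the response of Notch to its ligands, had the highest at 9.97, 1181 bp into the gene. Adam17, a protease, reached 7.31. Promoter peaks were those of Adam17 (6.65) and Psen2 (5.58), both CA repeats at starts of further transcripts, 40769 and 10197 bp into the genes. Psen2, a catalytic part of γ-secretase, also had the AHR KO peak of this group, and Psenen had no peak.

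Among nuclear partners, 9 of 10 had a WT peak. Maml3, a co-activator of the RBPJ complex, reached 22.62 at 2870 bp into the gene, with 32 peaks, 2 AHR KO peaks, and a promoter peak that scored 8.19 at 135 bp upstream of its start. Maml2, a second co-activator, reached 11.30 at 400548 bp into the gene, with 26 peaks. Snw1 had none.

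Regulators of receptors and ligands had a WT peak at 11 of 12. Mib1, the ubiquitin ligase that makes ligands active in the sending cell, had the highest of all 80 genes at 30.57, a CA repeat 1634 bp into the gene. Fbxw7, which marks the Notch intracellular part for degradation, reached 12.23. Dtx4, an E3 ligase of the Deltex family, reached 10.63 at 520 bp upstream of its start, a promoter peak with 3 copies of GCGTG. Neurl1a had the AHR KO peak of this group, and Dtx3 had no peak.

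Of the other target genes, 6 of 7 had a WT peak. Hes7, a Hes family repressor best known from the segmentation clock, reached 15.62 at 3338 bp from its start, above the 13.48 of Hes1, and Heyl and Hey2 reached 11.15 and 7.31. The peak of Hes7 was 79.5% soft-masked with no CA repeat. Hes6 had a promoter peak that scored 4.38, 373 bp upstream, and Hes3 had none.

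Of the secretory fate factors, 14 of 20 had a WT peak, beside 78.3% of all protein-coding genes. The highest were Creb3l1 (8.64), Gfi1b (6.98) and Pou2f3, the tuft cell factor (6.74). Foxa1, a factor of goblet and enteroendocrine cells, had a promoter peak that scored 6.15 at 944 bp upstream, a CA repeat. Creb3l4, Neurog3, Pax6 and Xbp1 were among those without a peak, and none of the 20 had an AHR KO peak. Atoh1, with a best score of 4.49, was below all 14 secretory factors that had a peak, the lowest of which was Sox4 at 4.93. No score had a replicate, so this order was not tested. Nor was the part that window length or the number of peaks had in it.

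**Figure D5:**
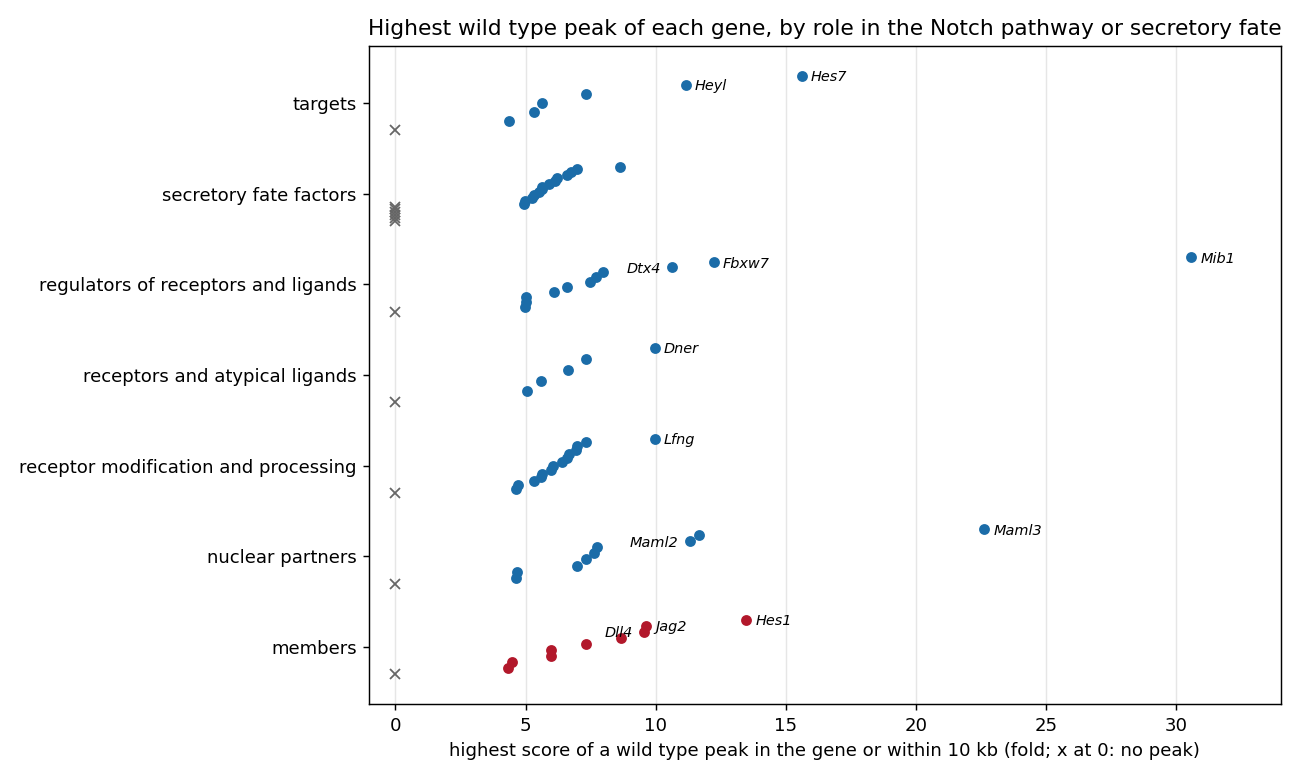
Highest WT peak score (x axis, fold enrichment) within 10 kb of each gene, by role in the pathway (rows), with the 10 members in red; crosses at 0 are genes with no peak, and most genes that score 9 or more are named. Mib1 (30.57), Maml3 (22.62) and Hes7 (15.62) lie above Hes1 (13.48), and no secretory factor reaches 9.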

How the data were processed

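AHR ChIP and input libraries of colon organoids (4 and 4 WT, 1 and 1 AHR KO) were used through the peak lists the authors deposited. Per the study's methods and the submitters' processing notes, reads were aligned to mm10 with BWA 0.7.15, duplicates were marked with Picard 2.1.1, peaks were called with MACS2 2.1.1 against input, and HOMER 4.8 annotated them. The methods also name bedtools for overlapping the peak sets, and whether this joined the WT cultures is not given in the sources used here. The deposited scores were read as ratios, the fold enrichment over background, and starts as counted from 1, since 9 peaks began at 1 and 0 at position 0. Peaks off the chromosomes (286 WT, 58 AHR KO) were left out where sequence was needed. Peaks were joined to GENCODE M21 genes with at least 1 bp of overlap. Repeats, GC content and words on both strands were read in 200 bp windows at midpoints, a CA repeat being CACACA or TGTGTG found 3 times or more without overlap. Python 3.11.15, pandas 2.3.3 and pysam 0.24.0 were used, and the scripts were tested on simulated data. No test was run. The members, the gene lists and the alternatives were chosen with earlier results of these data known. Every member was named with all its peaks. Of other pathway genes, the 3 highest per group and those with a promoter peak, an AHR KO peak or no WT peak were named, except for some that are not reported here. Most shares of member peaks were given with Wilson 95% intervals, but not those at a promoter or on the score grid. Counts of 0 windows were given with the share that 3 counts give.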

Additional observations from a re-analysis of the deposited data

How the results depend on the processing

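Of 34 alternative values, 21 stayed near the value reported, within 1.5 times for a count and within the 95% interval for a share. Among these were 6 members with a WT peak by gene bodies alone, in place of 9, and 43 other pathway genes with flanks of 2 kb, in place of 59. Those set by the window or by fewer peaks moved by construction. Gene bodies alone left 23 of the 38 WT peaks at members, and 37 of the 59 other pathway genes with a peak. Flanks of 2 kb left 25 peaks, and flanks of 50 kb gave 95 peaks and 2 members with an AHR KO peak in place of 1. With the top 10% of scores alone, 7 peaks at 5 members and 20 other pathway genes were left. With windows under 50% soft-masked, 5 members had a peak. For gene bodies alone, flanks of 2 or 50 kb and these windows, shares over all protein-coding genes were not counted. The 78.3% and 4.47% given above are for flanks of 10 kb. The core GCGTG alone was in 21.1% of member peaks, where TNGCGTG was in none by any window. A soft-masked limit of 25% or 75% in place of 50% gave shares of 100% and 60.5%. With starts of coding transcripts only, an alternative added after the peak values of this report were seen, 1 member peak had its midpoint at a promoter in place of 3, and 2 overlapped one.

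No paired analysis was possible because neither peak list gives values for single cultures, and leaving out a culture could not be run for the same reason. The background of the peaks on the score grids, 2.01 fragments in the WT list and 0.287 in the AHR KO list, limits what a missing peak shows.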
